A study of Mus musculus with 32 samples.

Results

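Glucose uptake and glycolysis in mouse liver were followed through 8 genes out of 20076 in the count table: Slc2a2, Gckr, Khk, Pfkl, Pfkfb1, Gapdh, Eno1 and Pklr. They were taken as a named set, for their place on the route from blood glucose and fructose to pyruvate. No measured value served as a rule, but earlier results of these data were known when the set was chosen. Comparisons of the members with all genes are therefore a description. Liver of male C57BL/6J mice was profiled, 4 mice in each of 8 groups. MCAD-KO (KO) mice lack Acadm, the gene for medium-chain acyl-CoA dehydrogenase of mitochondrial fatty acid oxidation, in the whole body, and wild-type (WT) littermates served as controls. All mice ate a semisynthetic diet for 6 weeks, either low-fat (LF) or high-fat (HF), and were then fasted for 16 h or kept on their diet (fed). The ages in the labels have no unit and ran from 7.5 to 16 in the mice analysed.

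In the liver, glucose crosses the plasma membrane through GLUT2 and is then trapped by phosphorylation, a step held back by a regulatory protein in the nucleus when glucose is low. Fructose enters by a separate kinase that bypasses the phosphofructokinase control point. Pyruvate kinase closes the route, and the liver form of its gene is a classical target of the carbohydrate response element binding protein (ChREBP, gene Mlxipl) in the fed state.

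Libraries were primed at the 3′ end, so that a transcript gives about 1 read whatever its length, and levels are given as CPM, a gene's share of the library's counts scaled by TMM. Total counts ran from 2031053 to 4292200 per mouse. Of the 32 mice, 30 were analysed. The library labelled KO HF fasted replicate 4 had a summed level of 10 hepatocyte markers of 734 CPM, against 36534 to 64082 CPM in the 30 mice, and its 10 heart muscle markers summed to 29929 CPM, against at most 26.4 CPM. The other mouse left out, WT LF fed replicate 2, had hepatocyte markers at 35532 CPM, but its levels of the genes studied here lay near those of fasted mice, with Pklr at 29.5 CPM. Leaving it out bears directly on the fasting comparisons, which are therefore also given with it. Acadm checked the genotype labels: it ran from 8.98 to 37.1 CPM in KO mice and from 190 to 748 CPM in WT mice. Acinar pancreas markers summed to 17949 CPM in WT HF fasted replicate 2, and pancreas and skeletal muscle markers to 2626 and 1283 CPM in KO HF fed replicate 1. RNA comes from whole liver, where fewer cells of a type and less RNA per cell cannot be told apart.

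Pklr is shown first as sequence, because it had the largest fasting difference of the set and its upstream region holds a match to the 17-base consensus of the carbohydrate response element, a pair of E-box-like arms 5 bases apart. RefSeq lists 2 starts for Pklr on GRCm38.p6, and the liver form is transcribed from the downstream one. The stretch chr3:89136373-89136571 on the plus strand lies before that start and ends where annotated exons begin, with the element in capitals at 89136453 to 89136469, that is 170 to 154 bases before the start.
Pklr: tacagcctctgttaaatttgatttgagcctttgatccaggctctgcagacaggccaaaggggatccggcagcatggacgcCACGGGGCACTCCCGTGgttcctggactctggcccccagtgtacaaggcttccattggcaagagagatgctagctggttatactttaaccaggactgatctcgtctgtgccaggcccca
Searched on both strands, this consensus was found in 32 of 32851 upstream windows of 250 bases in RefSeq, or 0.0974%, and in no window of the other 7 genes. Khk and Gckr are shown for shorter motifs, in 30 bases each on the plus strand, inside the first exon of another annotated transcript. In Khk (chr5:30921482-30921511) the capitals mark the E-box core CACGTG and the HNF1-type site GTTAAT, and in Gckr (chr5:31297492-31297521) GTTAAT alone.
Khk: ccccgtCACGTGacaccGTTAATctggcgc
Gckr: cagggttcttagGTTAATcatctccatggc
CACGTG was present in 6.02% and GTTAAT, read on both strands, in 6.43% of all windows. GTTAAT also occurred upstream of a start of Pfkfb1, 114 to 109 bases before it, and Pfkfb1 did not pass for fasting. These matches are a description of letters and were not tested for binding. A 3′ read does not tell which start a transcript came from.

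Fasting lowered 6 of the 7 members that could be tested, Slc2a2, Gckr, Khk, Pfkl, Eno1 and Pklr, averaged over both genotypes and both diets. Pklr fell 5.12-fold and Khk 1.99-fold, and the other 4 fell between 1.34-fold and 1.59-fold. Pfkfb1 did not pass the test, and Gapdh had too few counts. By the quasi-likelihood test of edgeR (p adjusted after Benjamini-Hochberg), 18.9% of the 11566 genes tested differed with fasting and 9.14% were lower. The median log2 fold change was -0.61 over the 7 members and -0.002 over all genes tested.

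**Figure D1:**
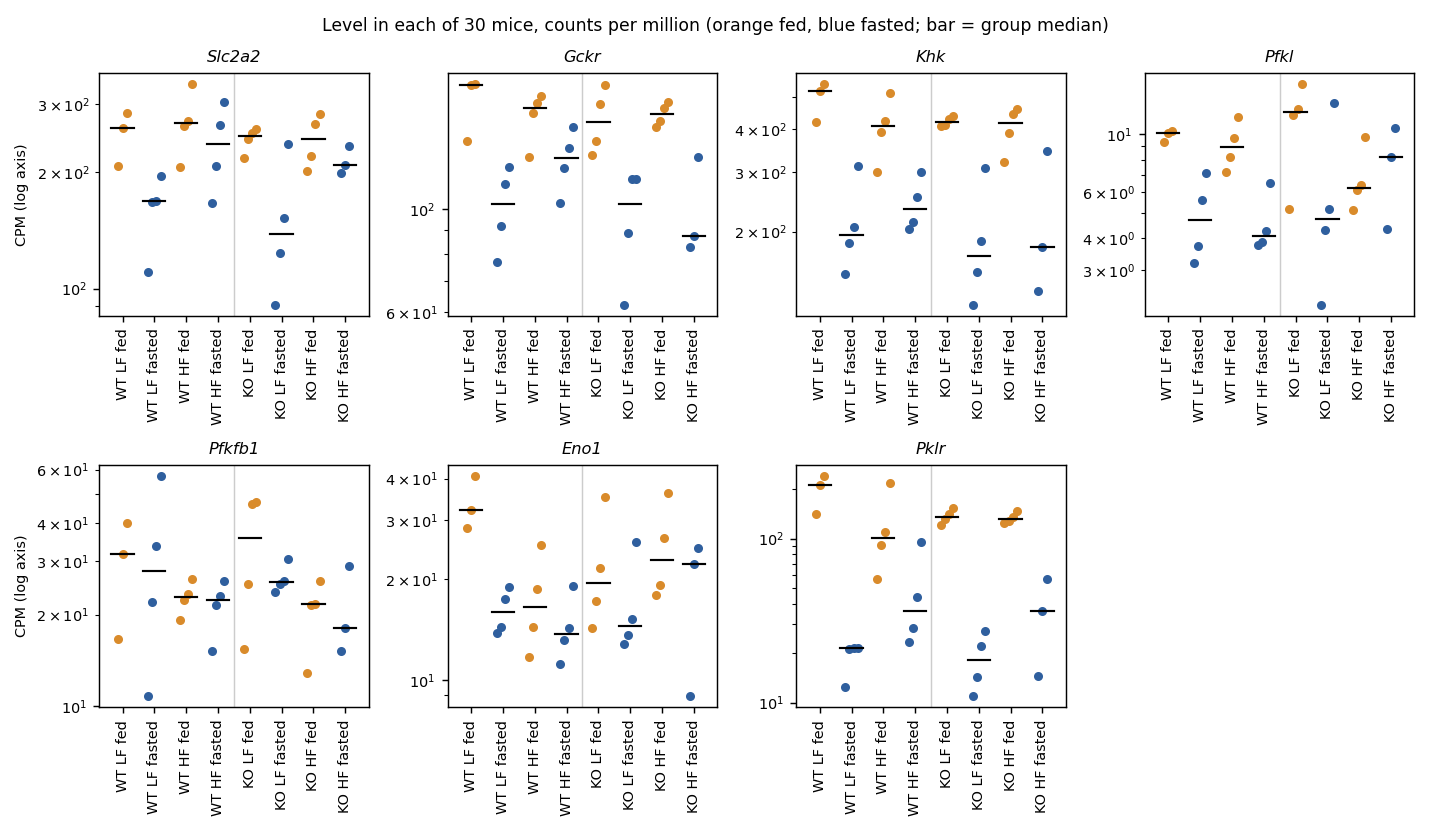
Level of 7 members in CPM on a log axis, with 1 point per mouse in 8 groups (30 mice; orange fed, blue fasted) and a bar at the group median. Pklr showed the widest gap between fed and fasted mice, and Pfkfb1 levels overlapped throughout.

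Slc2a2 (chr3:28697903-28731359, plus strand) encodes GLUT2, the main hepatocyte glucose transporter. In LF mice, fed WT livers had 208, 261 and 285 CPM and fasted WT livers 169, 111, 196 and 168 CPM. Fed KO livers on LF had 245, 259, 217 and 253 CPM and fasted ones 124, 237, 152 and 90.7 CPM. All fasted LF mice except KO replicate 2 lay below every fed LF mouse. On HF, fed WT mice had 272, 206, 338 and 264 CPM and fasted WT mice 266, 305, 208 and 166 CPM. Fed KO mice on HF had 202, 266, 283 and 221 CPM and fasted KO mice 234, 209 and 199 CPM. On HF the fed and fasted ranges overlapped in both genotypes. Averaged over groups, the log2 fold change with fasting was -0.43 (SE 0.11, adjusted p = 0.00395).

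Gckr (chr5:31297443-31327314, plus strand) encodes a regulatory protein that restrains glucose phosphorylation. Its LF levels were 140, 185 and 184 CPM in fed WT mice and 91.6, 77.0, 113 and 123 CPM in fasted WT mice. KO mice on LF had 131, 140, 184 and 168 CPM when fed and 116, 88.6, 116 and 62.2 CPM when fasted. The groups did not overlap on LF in either genotype. WT mice on HF had 129, 169, 174 and 161 CPM when fed and 122, 150, 103 and 135 CPM when fasted. KO mice on HF had 150, 170, 165 and 155 CPM when fed and 129, 87.5 and 82.8 CPM when fasted. Here the KO groups were apart and the WT groups overlapped. Over all mice the log2 fold change was -0.61 (SE 0.096, adjusted p = 6.26e-06), and 12 of 15 fasted mice lay below every fed mouse.

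Khk (chr5:30921431-30931248, plus strand) encodes ketohexokinase, which phosphorylates fructose. In LF mice its levels were 421, 518 and 544 CPM in fed WT and 185, 150, 206 and 312 CPM in fasted WT mice. In KO mice on LF they were 429, 438, 413 and 410 CPM when fed and 187, 152, 308 and 122 CPM when fasted. All 8 fasted LF mice lay below all 7 fed LF mice. On HF, WT mice had 394, 299, 511 and 424 CPM when fed and 253, 299, 204 and 214 CPM when fasted. KO mice on HF had 320, 459, 443 and 392 CPM when fed and 345, 181 and 133 CPM when fasted. HF groups touched at 1 mouse each, WT fed replicate 2 against WT fasted replicate 2, and KO fed replicate 1 against KO fasted replicate 1. The log2 fold change was -0.99 (SE 0.13, adjusted p = 1.01e-06).

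Pfkl (chr10:77986947-78010083, minus strand) encodes the liver subunit of phosphofructokinase, the committed step of glycolysis. It was low in this assay, with 5 to 42 counts per mouse. Fed mice ran from 5.11 to 15.6 CPM with a median of 9.72 CPM, and fasted mice from 2.21 to 13.2 CPM with a median of 4.33 CPM. Of the fasted mice, 8 of 15 lay below every fed mouse. The log2 fold change was -0.67 (SE 0.21, adjusted p = 0.0174). Without the pair of mice that carried pancreas or muscle markers it was -0.60 (adjusted p = 0.0505), and in the 30 fits that left out 1 mouse each the adjusted p was at most 0.0453.

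Pfkfb1 (chrX:150588229-150643878, plus strand) encodes the liver bifunctional enzyme that makes and breaks fructose 2,6-bisphosphate, the activator of phosphofructokinase. Fed mice ran from 12.8 to 46.9 CPM with a median of 23.3 CPM, and fasted mice from 10.8 to 57.4 CPM with a median of 23.8 CPM. The ranges overlapped almost wholly, and the highest and the lowest value were both in WT LF fasted mice, replicates 2 and 3. With fasting the log2 fold change was -0.08 (SE 0.19, adjusted p = 0.820), with a 95% interval of -0.45 to 0.28. Pfkfb1 overlaps Apex2 on the opposite strand, as Pklr does Hcn3, Gapdh does Iffo1 and Slc2a2 the antisense gene 1700112D23Rik. Whether the counting used strand is not given in the sources used here, so reads of these pairs may not be told apart.

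Gapdh (chr6:125161715-125166467, minus strand), the glyceraldehyde 3-phosphate dehydrogenase often used as a reference gene, had 0 to 9 counts per mouse and 36 counts over the 30 mice. No direction is given for it, because every mouse except WT LF fed replicate 4 was at or below the floor of 3 counts. Of the 451 windows of 50 bases in the last 500 bases of its transcript, 408 (90.5%) also occur in transcripts of 138 other genes, 135 of them pseudogenes. The 25 of those genes in the count table held 123 counts together over the 30 mice. A read that maps to several genes is left out by the counting tool in its usual setting. Whether this lowered the Gapdh count was not tested, and the count is not taken as a measure of Gapdh mRNA.

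Eno1 (chr4:150236721-150248879, plus strand) encodes enolase 1. Fed mice ran from 11.7 to 40.9 CPM with a median of 21.6 CPM, and fasted mice from 8.93 to 25.8 CPM with a median of 14.4 CPM. Fed and fasted mice overlapped in every genotype and diet except WT on LF, where fed mice had 40.9, 28.5 and 32.3 CPM and fasted mice 17.5, 14.4, 13.8 and 19.0 CPM. The log2 fold change was -0.54 (SE 0.16, adjusted p = 0.0110). Its level is uncertain: 75.2% of its 3′ windows also occur in Eno1b or in 4 pseudogenes, and Eno1b, counted apart at 8.38 to 32.4 CPM, had a log2 fold change of -0.41 (SE 0.16, adjusted p = 0.0581).

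Pklr (chr3:89136142-89146784, plus strand) encodes the pyruvate kinase of liver and red cells. On LF, fed WT mice had 141, 211 and 242 CPM, and fasted WT mice 21.6, 21.3, 12.5 and 21.5 CPM. On the same diet, fed KO mice had 121, 153, 132 and 141 CPM and fasted KO mice 22.1, 27.3, 14.2 and 10.9 CPM. The fed and fasted LF mice did not overlap in either genotype. WT mice on HF had 91.4, 56.7, 218 and 110 CPM when fed and 43.8, 95.9, 23.3 and 28.5 CPM when fasted. KO mice on HF had 128, 147, 125 and 136 CPM when fed and 56.4, 14.6 and 36.0 CPM when fasted. The KO groups stayed apart, while WT HF fasted replicate 2, the mouse with pancreas markers, exceeded 2 fed WT mice. The log2 fold change over all groups was -2.36 (SE 0.23, adjusted p = 3.42e-08). Without the pair of mice that carried other tissue's markers it was -2.51 (adjusted p = 2.88e-09).

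Fed WT mice on LF were all sequenced on lane 8, so the fasting difference was also computed within each lane of the labels. The fits within a lane had terms for genotype, diet, feeding and diet by feeding, in place of the 8 group means. On lane 7 (16 mice), where 794 of 11303 genes passed, 2 members did, Khk with -0.84 (adjusted p = 0.00445) and Pklr with -2.03 (adjusted p = 0.00367). Of those that did not pass there, Slc2a2 had -0.36, Gckr -0.42, Pfkl -0.88 and Eno1 -0.41. On lane 8 (14 mice), where 1473 of 12261 genes passed, 5 members did, Slc2a2 (-0.61), Gckr (-0.76), Khk (-1.28), Eno1 (-0.65) and Pklr (-2.81), and Pfkl had -0.61 (adjusted p = 0.2). All 7 had the same sign on both lanes. With WT LF fed replicate 2 added, the same 6 members and 2120 of 11631 genes passed. The adjusted p of these members lay between 1.06e-06 for Pklr and 0.0473 for Slc2a2.

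**Figure D2:**
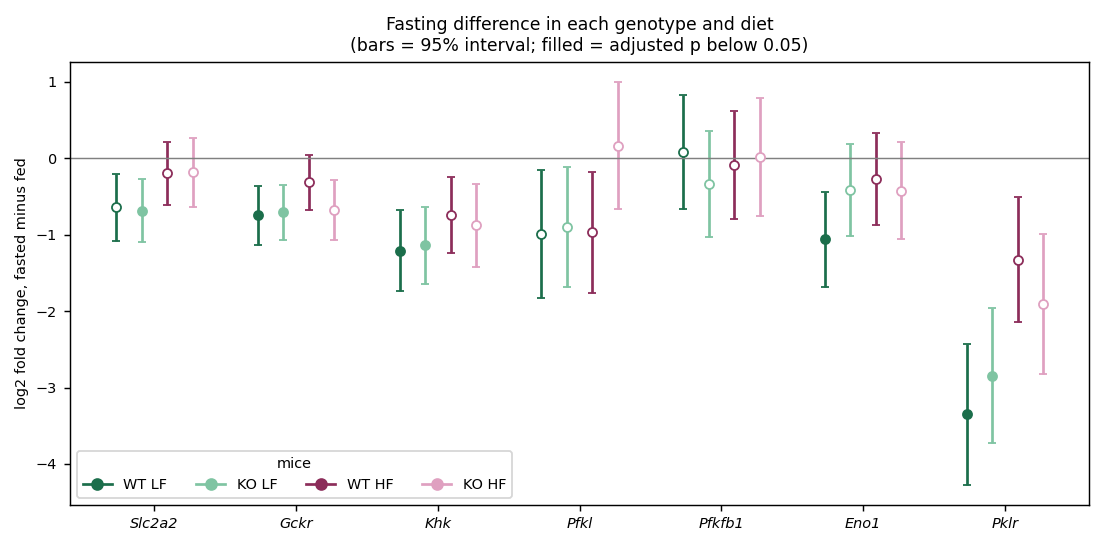
Fasting difference as log2 fold change (fasted minus fed) for 7 members within each genotype and diet, with 95% intervals and filled points where the adjusted p was below 0.05. For Pklr the estimates ran from -3.35 in WT LF mice to -1.33 in WT HF mice, and all filled points belong to LF mice.

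Within single genotypes and diets, members passed the fasting test in LF mice only in this model. In WT LF mice 4 of 7 passed, where 7.54% of all genes did: Gckr, Khk (-1.21), Eno1 (-1.06) and Pklr (-3.35, SE 0.47, adjusted p = 4.47e-05). Members whose fasted values all lay below all fed values numbered 6, against 10.2% of all genes. In KO LF mice 4 passed, Slc2a2 (-0.69), Gckr, Khk (-1.14) and Pklr (-2.84, SE 0.45, adjusted p = 0.000103), where 13.8% of all genes did. There 3 members did not overlap and were lower, against 6.97% of all genes. With WT LF fed replicate 2 added, 1 member passed in WT LF mice, while over all genes 996 of 11631 passed there, against 872 of 11566 without it. In KO LF mice 3 members and 1442 of all genes then passed, against 1595 without it. Leaving out WT LF fasted replicate 2 or WT LF fed replicate 4 left 2 members in WT LF mice, with 668 of 11586 and 568 of 11876 genes.

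In HF mice edgeR called no member in either genotype, with 3 of 7 at an unadjusted p below 0.05 in each. Of the 11566 genes tested, 1063 in WT HF and 871 in KO HF mice were below that value. Pklr had -1.33 (SE 0.42, adjusted p = 0.202) in WT HF and -1.91 (SE 0.47, adjusted p = 0.0700) in KO HF mice. Few genes passed at all in these groups, 0.424% in WT HF and 0.527% in KO HF mice. DESeq2 called 0 members in WT HF and 1 in KO HF mice, where 161 and 139 of 11566 genes passed. By limma voom 1 member passed in each, with 71 and 56 genes. Groups that did not overlap and were lower were found for 1 member (Pfkl) in WT HF, against 2.7% of all genes, and for Gckr and Pklr in KO HF, against 5.2%. Without KO HF fasted replicate 1, 3 members and 117 of 11882 genes passed in KO HF mice. Without WT HF fasted replicate 2, 1 member and 157 of 11567 genes passed in WT HF mice, against 49 genes with it. In KO HF mice 1 member and 78 genes then passed, against 61 genes with it.

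Whether fasting differed between the diets was tested directly, as the fasting difference on HF minus that on LF. All 7 estimates were positive, from 0.09 for Pfkfb1 to 1.48 for Pklr, with a median of 0.39 against -0.009 over all genes tested. None passed by edgeR, where 2.46% of all genes did and 2 members, Slc2a2 and Pklr, had an unadjusted p below 0.05. Of the 11566 genes tested, 1533 were below that value. Pklr came nearest, at 1.48 (SE 0.44, adjusted p = 0.0808). It passed with DESeq2 (adjusted p = 0.029) and with lane as a term (0.0476), and in edgeR without KO HF fasted replicate 2 (0.0296), WT HF fed replicate 3 (0.0242) or WT HF fasted replicate 3 (0.0464). It did not pass with limma voom, and with WT LF fed replicate 2 added it was 1.31 (adjusted p = 0.26). The estimate was 1.45 on lane 7, which held no fed WT LF mouse, and 1.37 on lane 8, and it passed on neither. The fits within a lane let no effect depend on genotype. The comparison of diets in fasting for Pklr therefore depends on the tool and on single mice.

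**Figure D3:**
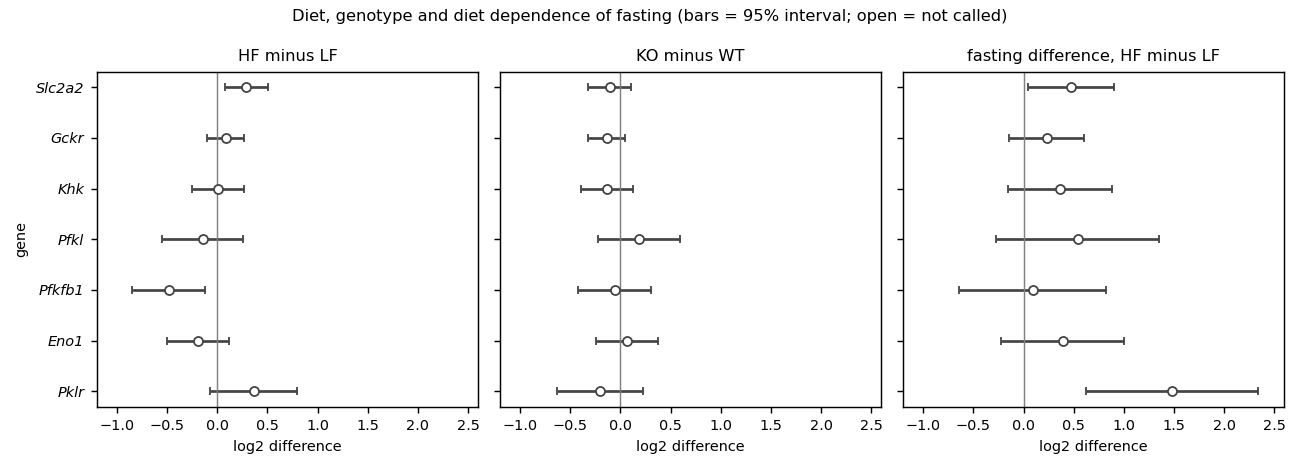
Log2 differences of 7 members for diet (HF minus LF), genotype (KO minus WT) and the fasting difference on HF minus that on LF, with 95% intervals, all open because none passed an adjusted p of 0.05. The Pklr interval in the right panel, 0.62 to 2.34, is the one farthest from 0.

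No member passed the test for high-fat feeding, averaged over genotypes and feeding states, where 3.49% of all genes passed. By edgeR 2 of 7 members and 1830 of 11566 genes had an unadjusted p below 0.05, and DESeq2 and limma voom called no member. Slc2a2 had 0.29 (SE 0.11, adjusted p = 0.155) and Pfkfb1 -0.49 (SE 0.19, adjusted p = 0.167). The Slc2a2 value passed when KO LF fasted replicate 2, the highest of its group at 237 CPM, was left out (adjusted p = 0.0242), and the Pfkfb1 value without WT LF fasted replicate 3 (adjusted p = 0.0485). Khk had 0.009 with a 95% interval of -0.25 to 0.27, and the intervals of all 7 members lay between -0.85 and 0.79.

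Split by genotype and feeding, diet passed for no member in fed WT (0.0778% of all genes), fasted WT (1.12%), fed KO (0.00865%) or fasted KO mice (1.68%). In that order, 1, 2, 0 and 1 members had an unadjusted p below 0.05 by edgeR, against 604, 1419, 840 and 1510 of 11566 genes. DESeq2 and limma voom called no member. Pklr was higher on HF than on LF in every fasted WT mouse, 23.3 to 95.9 against 12.5 to 21.6 CPM, with a log2 fold change of 1.29 (SE 0.44, adjusted p = 0.187). Of all genes, 7.23% had groups that did not overlap in this comparison. The same difference was 0.91 (SE 0.48, adjusted p = 0.439) in fasted KO mice. In fed WT mice Pklr had -0.73 (SE 0.43, adjusted p = 0.989) and Eno1 -0.94 (SE 0.32, adjusted p = 0.622), and the 4 HF values of Eno1 lay below the 3 LF values, where 8.33% of all genes had groups that did not overlap.

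No member passed the test for loss of Acadm. Averaged over diets and feeding states, Acadm itself was the only gene that passed, with -4.44 (SE 0.12), which is 0.00865% of the genes tested. The members ran from -0.20 for Pklr to 0.18 for Pfkl. By edgeR 0 of 7 had an unadjusted p below 0.05, against 335 of 11566 genes. DESeq2 and limma voom called no member. The 95% intervals of all 7 lay between -0.63 and 0.59. For Gckr and Slc2a2, the members with the smallest errors, they were -0.32 to 0.05 and -0.32 to 0.11, so that a value as large as the fasting difference of Gckr, -0.61, lay outside them.

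The same held in each of the 4 KO to WT comparisons that the study was built on, 1 for each combination of diet and feeding state. No member passed or had an unadjusted p below 0.05 by edgeR, 1 gene passed in each (0.00865%), and DESeq2 and limma voom called no member. Of 11566 genes, 450 (LF fed), 684 (LF fasted), 316 (HF fed) and 288 (HF fasted) had an unadjusted p below 0.05 by edgeR. In these smaller groups the intervals were wider, from -1.38 to 1.56 over all members. The fasting difference and the diet difference did not pass for any gene as dependent on genotype, 0% in both tests by edgeR, DESeq2 and limma voom. Of the 11566 genes tested, 573 and 397 had an unadjusted p below 0.05 by edgeR, no more than that threshold lets through by chance. The largest member values were 0.62 for Pfkl in the fasting test and 0.71 for Eno1 in the diet test. Of the members, none had an unadjusted p below 0.05 in the first and 1, Eno1, in the second.

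**Figure D4:**
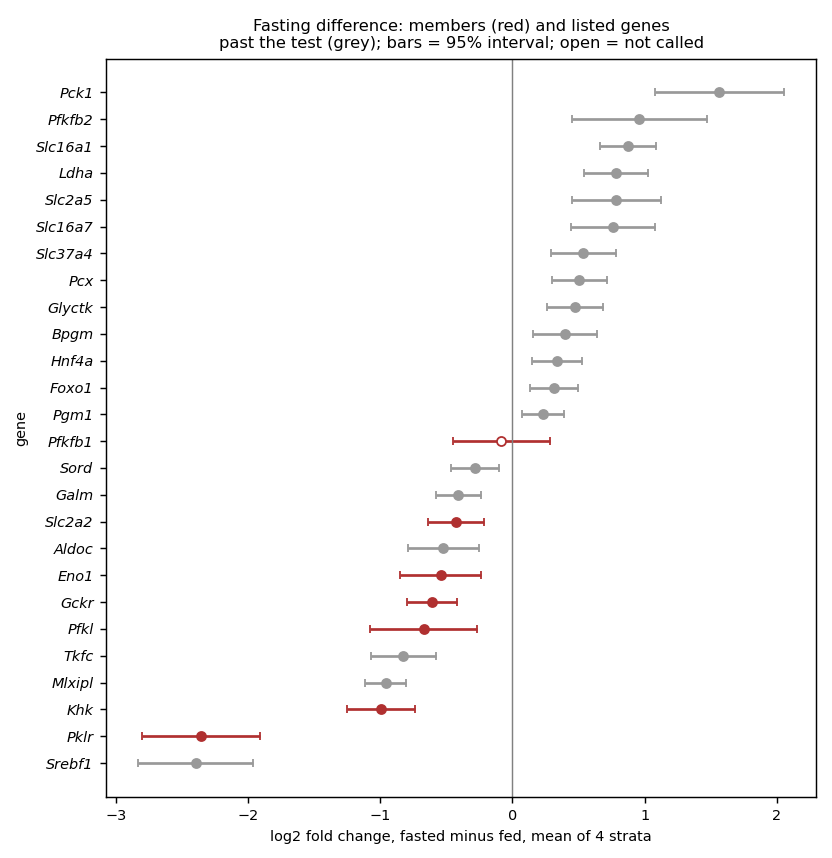
Log2 fold change with fasting, averaged over genotypes and diets, with 95% intervals, for 7 members (red, Pfkfb1 open as not called) and the 19 listed genes of the same pathways that passed (grey). Srebf1 and Pklr lie lowest and Pck1 highest.

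Other genes of sugar metabolism were counted from lists of transporters, kinases, glycolytic, fructose and galactose enzymes, lactate exchange, transcription factors and enzymes of glucose production. Of 68 listed genes besides the members, 54 were tested, and with fasting 13 rose, 6 fell and 35 did not pass. Their median log2 fold change was -0.12. Lower genes of the same routes included Tkfc (-0.83), the triokinase that acts after Khk, and Aldoc (-0.52), an aldolase. Of the transcription factors, Mlxipl fell by 0.96 (SE 0.079, adjusted p = 9.05e-12) and Srebf1, the sterol regulatory element binding protein that also drives fatty acid synthesis genes, by 2.40 on the log2 scale.

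Genes that rose included Pck1 (1.56), Pcx (0.51) and Slc37a4 (0.54), which act in glucose production, and Ldha (0.78), Slc16a1 (0.88) and Slc16a7 (0.76), which make and carry lactate and related acids. Of the galactose list, Galm (-0.41) fell and Pgm1 (0.23) rose. Slc2a5 (0.78), a fructose transporter, rose, Glyctk (0.47) rose and Sord (-0.28) fell. Hnf4a (0.34) and Foxo1 (0.31), transcription factors of liver and of fasting, and Bpgm (0.40) also rose.

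Of the isoenzymes of the members named here, taken with the hexokinases Hk1 and Hk2 and the transporter Slc2a1, 1 passed. Pfkfb2 rose by 0.96 (SE 0.26, adjusted p = 0.00626) where Pfkfb1 did not pass, and Pfkfb3 had 0.10. None of Hk1 (-0.51), Hk2 (-0.52), Pfkm (-0.37), Pfkp (-0.14), Eno3 (-0.28), Pkm (-0.27) and Slc2a1 (-0.01) passed. Eno3 had medians of 2.89 CPM in fed and 3.61 CPM in fasted mice, with a fed maximum of 26.2 CPM. Its log2 fold change was -1.59 in KO HF mice, against -0.18, 0.22 and 0.44 in WT LF, WT HF and KO LF mice. Fed maxima of Pfkm and Hk2, 22.0 and 31.1 CPM, also lay far above their fed medians of 7.59 and 6.55 CPM. KO HF fed replicate 1 carried skeletal muscle markers, and its part in these values was not tested. Pfkfb4 and Eno2 had at most 11 and 3 counts per mouse and were not tested.

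With diet, 3 listed genes rose, Slc2a9 (0.37), Ldhd (0.40) and Sord (0.56), and Slc37a4 fell by 0.67. The fasting difference depended on diet for 1 of these listed genes. Mlxipl fell less on HF, by a difference of 0.81 (SE 0.16, adjusted p = 0.00247), with -1.50 in WT LF and -0.58 in WT HF mice.

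Across the 30 mice the members split by how closely they tracked each other, given here as Pearson correlations of log2 CPM that also carry the fed and fasted contrast and shared library depth. Gckr and Khk were the closest pair, with r = 0.905, and 0.744 after the group means were removed. Khk and Pklr had 0.866, and 0.453 within groups. Pfkfb1 lay between -0.09 and 0.21 with the other 7, and Gapdh, at 0 to 9 counts, between 0.05 and 0.22. Among 7397 genes with a mean of at least 10 CPM, Slc2a2 was most like Atpif1 (0.857), Tcea3 (0.855) and Apol7a (0.849), and Gckr most like Khk, Nqo2 (0.881) and Aldh4a1 (0.878). Khk was most like Nipsnap1 (0.940), Pygl (0.936), the liver glycogen phosphorylase, and Cyb5r3 (0.921), and Pklr most like Gm3571 (0.944), Gstm3 (0.942) and Fdps (0.940). Pfkl had Depdc7 (0.757), C9 (0.748) and Fdx1 (0.739), Eno1 had Id3 (0.662), Gcat (0.657) and Nipsnap1 (0.645), and Pfkfb1 had Slc16a10 (0.687), Ahsa1 (0.662) and Ssu72 (0.590). For Gapdh, at 0 to 9 counts, the nearest were Mtfmt (0.562), Gm6142 (0.540) and Snrpg (0.525), which its low counts leave without meaning.

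WT LF fed replicate 2 is given apart, since its levels decide several calls. On a scaling over all 32 mice it had 95.4 CPM of Slc2a2, 79.1 of Gckr, 94.1 of Khk, 7.53 of Pfkl, 12.6 of Pfkfb1, 13.2 of Eno1 and 29.5 of Pklr. All 7 values were below those of the other fed WT LF mice. Its Acadm level of 308 CPM, within the WT range, went with its genotype label. The heart-like library had 13 counts of Slc2a2, 7 of Gckr, 40 of Khk and 2 of Pklr, but 63 of Pfkl.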

How the data were processed

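Per the labels and the study's methods, RNA of freeze-clamped liver was made into QuantSeq 3′ libraries, and the authors mapped single reads to GRCm38 with HISAT 0.1.5, with SAMtools 1.2, and counted reads per gene with HTSeq 0.6.1p1 in union mode. The authors deposited 1 table of whole-number counts, with no normalization, for 20076 genes and 32 mice. Annotation releases and libraries per lane differ between the methods and the labels, and lanes here follow the labels. Symbols and gene positions were taken from the vM21 release of GENCODE, also on GRCm38, with 19918 identifiers matched, and the other 158 held 0.115% of counts.

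Counts were tested with edgeR 4.0.16 in R 4.3.3 (TMM, filterByExpr, robust quasi-likelihood F test, Benjamini-Hochberg over 11566 genes, threshold 0.05), in 1 model with a mean for each of the 8 groups of 30 mice. Averaged effects are means of the 4 strata. SE is the log2 fold change divided by the root of F, and 95% intervals are 1.96 SE to each side. These rest on a normal quantile and can be somewhat narrower than the F test implies. Pfkfb1 for diet in fed KO mice had -1.41 to -0.004, with an unadjusted p of 0.0581 by edgeR. CPM are counts scaled to the TMM-adjusted library size. The test was checked on simulated counts. DESeq2 1.42.0 and limma 3.58.1 voom, another scaling, other filters, lane or age as terms, each lane alone, 31 or all 32 mice, the replicate block and leaving out each mouse were alternatives; omitting mice with other tissue's markers was added after seeing the data.

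The 8 genes and all lists were chosen with earlier results of these data known. Named besides the members were listed genes that passed for fasting, diet, genotype or fasting by diet, fixed isoenzymes and partners, Acadm, and for each member the 3 genes with the highest correlation (log2 CPM with a prior count of 2). Mice of 1 group were compared by chi-square over their counts, with at least 3.975 per gene in 42 pairs, so none of these pairs were duplicates. Mice of different groups were not compared in this way. A floor of 3 counts covers counting error only. Promoter sequence is RefSeq's. Protein sequences were not used here, and some listed genes are not reported here and are left out of the list counts.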

Additional observations from a re-analysis of the deposited data

Results flagged for a closer look

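Of 42 combinations of a member and a group of 4 mice, 1 held a mouse far from the others: Pklr in WT LF fasted replicate 3 was 12.5 CPM, where the other 3 mice had 21.3 to 21.6 CPM. The gap took 0.962 of the group's range, above Dixon's 95% critical value for 4 samples. Chance flags about 1 in 20 groups. The other 3 values lay close together, and the mouse was within the 10.9 to 27.3 CPM of fasted KO mice on the same diet.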

How the results depend on the processing

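For counts of members that passed, 729 of 758 alternatives equalled the reported count or stayed within 1.5 times it. In most comparisons the reported count was 0, and an unchanged 0 was scored as the same, so this share says little about stability. Direction and side of the threshold stayed the same for 1146 of 1200 single-gene alternatives. The cause of the changes below was not tested. The fasting effect had 3 members (1553 of 11502 genes) with all 32 mice, heart-like library included, and 2 (794 of 11303 genes) on lane 7. Fasting by diet had 1 with DESeq2 (430 of 11566 genes) and with lane as a term (252 genes), and 0 to 1 when single mice were left out. Fasting in WT LF mice had 1 with all 32 (414 of 11502 genes) and with 31 mice (996 of 11631 genes), and 2 to 5 with single mice left out. WT HF had 1 with limma voom (71 of 11566 genes), with only the 2 groups compared (85 of 9926) and without the mice with pancreas or muscle markers (152 of 11502). With single mice left out WT HF had 0 to 1. KO LF had 1 with all 32 mice (735 of 11502 genes) and 2 with only the 2 groups compared (759 of 9823). KO HF had 1 with DESeq2 (139 of 11566 genes), limma voom (56), at least 10 counts in every mouse (73 of 7150), lane as a term (58) and without the marker mice (67 of 11502). With single mice left out KO HF had 0 to 3, of which WT HF fed replicates 2 and 3 gave 1 (75 of 11584 and 70 of 11478 genes). The diet effect had 0 to 1 with single mice left out, with 1 without KO LF fasted replicate 2 (502 of 11495 genes) or WT LF fasted replicate 3 (452 of 11586). Diet in KO fasted mice had 1 without KO LF fasted replicate 2 (252 of 11495).

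No value whose sign turned had passed the test; the reported values of these reached 0.39 (Eno1 fasting by diet). With all 32 mice the turned values were Khk diet -0.00713, Gckr fasting by diet -0.0755 and Pfkfb1 fasting by diet -0.129, and with 31 mice Pfkfb1 fasting by diet -0.0201. Khk diet was -0.0194 with lane as a term and -0.0111 with age as a term. On lane 7 they were Pfkl diet 0.0493, Eno1 diet 0.196, Gckr genotype 0.0270, Khk genotype 0.0904 and Eno1 fasting by diet -0.0635. On lane 8 they were Khk diet -0.0968, Pfkl genotype -0.348, Pfkfb1 genotype 0.0389, Eno1 genotype -0.385 and Khk fasting by diet -0.192. Eno1 genotype was -0.0265 with limma voom and -0.0266 with lane as a term. Leaving out single mice gave Khk diet -0.112 to 0.0886, Pfkl diet -0.224 to 0.00042, Pfkfb1 genotype -0.138 to 0.0605, Eno1 genotype -0.0150 to 0.151 and Pfkfb1 fasting by diet -0.0677 to 0.325.

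Replicate numbers did not pair mice: residuals of 42 same-numbered pairs correlated at -0.153 to 0.168. With the replicate block 6 members and 2124 of 11566 genes still passed for fasting, and Pklr was -2.39. Depth limits Pfkl, at 5 to 42 counts, and Gapdh.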
